A study of Mus musculus with 8 samples.

Results

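The genes described here encode the subunits of the 5 oxidative phosphorylation complexes, followed in liver duct cells as they were taken into organoid culture. Members were chosen by gene symbol alone, as protein-coding genes whose symbols start with Ndufa, Ndufb, Ndufc, Ndufs, Ndufv, Sdha to Sdhd, Uqcr, Cox4i, Cox5, Cox6, Cox7, Cox8 or Atp5, together with mt-Nd, mt-Co, mt-Cytb and mt-Atp; assembly factors named Ndufaf and pseudogenes were left out. The rule found 98 of the 47729 genes in the deposited table, of which 85 are coded in the nucleus and 13 on mitochondrial DNA. Choosing by symbol admits a few genes that are not fixed subunits, such as Cox7a2l, known as a supercomplex factor. Whether Cox7a2l acts so in these mice was not tested. The choice leaves out Cyc1, the cytochrome c1 of complex III, which is given with the other pathway genes.

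The study used flow cytometry to sort EpCAM+ cells, the epithelium of the bile ducts, from adult male C57/B6 mice with healthy livers and followed their RNA into culture. The 8 low-input libraries were 2 of cells just sorted (0 h), 2 of cells kept for 12 h in Matrigel with organoid medium, 1 of cells kept so for 24 h, another titled 48h, and a pair of organoid libraries taken at 6 days in the same gel and medium. The labels of the library titled 48h otherwise put it at 24 h, so it is called the 48h-titled library and kept separate. No animal carried a transgene or a deletion according to the labels, and nothing in them says that replicates came from separate animals or cultures, so the spread that p-values measure may be technical.

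Oxidative phosphorylation passes electrons from NADH through complex I, or from succinate through complex II, to complex III, cytochrome c and complex IV, where oxygen is reduced. Complexes I, III and IV pump protons across the inner mitochondrial membrane, and complex V, the ATP synthase, uses their return to make ATP. Complex II is coded wholly in the nucleus, whereas the other complexes join nuclear subunits, imported as proteins, with core subunits made inside the organelle from mitochondrial DNA.

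Values are RPKM, reads scaled to the length of the gene and the depth of the library, as the authors gave them. The libraries held between 13834386 and 28471586 effective reads, so 1 read in a gene of 1 kb stood for 0.0351 to 0.0723 RPKM, and a count of 0 allows 3 reads, or 0.105 to 0.217 RPKM in such a gene, for counting error only. Duct markers such as Epcam, Sox9 and Spp1 were present throughout, with 7 duct markers summing to between 8977 and 20968 RPKM. The sum of 10 hepatocyte markers was 999.6 and 964.9 RPKM in fresh cells, between 38.7 and 164 at 12 h, 24 h and in the 48h-titled library, and 7.08 and 12.8 in organoids. Among them Cps1 was at 0 in every cultured library. Lists of mesenchymal, endothelial and immune markers each summed to at most 9.94, 3.59 and 27.4 RPKM in any library, Cd3e being at 0 in all 8, and the mesothelial sum of 37.9 to 488 RPKM came mostly from Msln outside the fresh cells. Organoid replicate 1 stood apart from the other 7 libraries: its RPKM summed to 446034 against 357129 to 369701, and its results are given below with and without it. In bulk RNA, fewer cells of a type and less RNA per cell cannot be told apart.

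Before any comparison, the mitochondrial genes divided into those that the table measures and those that it does not. In all 8 libraries mt-Co2, mt-Atp6, mt-Atp8 and mt-Nd4l were listed at 0, and mt-Co3 reached at most 0.0664 RPKM, whereas the other members on the same genome, apart from mt-Nd3, had means of 518 to 4995 RPKM. These genes encode complex IV subunits 2 and 3, the ATP synthase subunits a and A6L, and complex I subunit ND4L, all of which every respiring cell makes. Copies of all or part of mt-Co1, mt-Co2, mt-Atp6, mt-Co3, mt-Nd3, mt-Nd4l and mt-Nd4 are annotated as pseudogenes next to each other in the nuclear genome. They lie at chr1:24611535-24616197 in GRCm38. Over the bases compared, mt-Co2 and its pseudogene Gm28661 were identical at 681 of 681, mt-Atp6 and Gm10925 at 678 of 678, mt-Co3 and Gm28437 at 783 of 783, and mt-Nd4l and Gm10222 at 294 of 294. Gm28661, Gm10925, Gm28437 and Gm10222 themselves held at most 0.427 RPKM, so for these genes the table holds almost no reads under either name. For mt-Nd3, listed at 1.23 to 6.29 RPKM, the pseudogene Gm28438 differed at 1 of 345 bases, T3C counted from the first base of the mitochondrial gene, and the first 41 bases of both are shown because that base (in capitals) is all that separates them.
mt-Nd3: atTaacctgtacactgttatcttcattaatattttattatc
Gm28438: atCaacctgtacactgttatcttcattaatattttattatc
Both sequences are from GENCODE M21 transcripts on GRCm38. Of the 50-base windows of mt-Nd3, 98.0% occurred in another annotated gene, compared with 62.2% for mt-Nd4 and 51.1% for mt-Co1, whose means were 568 and 3741 RPKM. For mt-Atp8, also listed at 0, no window was found in another annotated transcript. Only annotated transcripts were searched. On mitochondrial DNA mt-Atp8 starts between mt-Co2 and mt-Atp6, and the bases between their copies Gm28661 and Gm10925 were not searched. No source used here says how the authors treated reads that match several places, and the part of that step in these values was not tested. Levels of the 5 genes listed at or near 0 are therefore not read as expression. Values of mt-Nd3, mt-Nd4 and mt-Co1, which stay in the counts of tested genes, are uncertain to the extent of their copies.

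**Figure D1:**
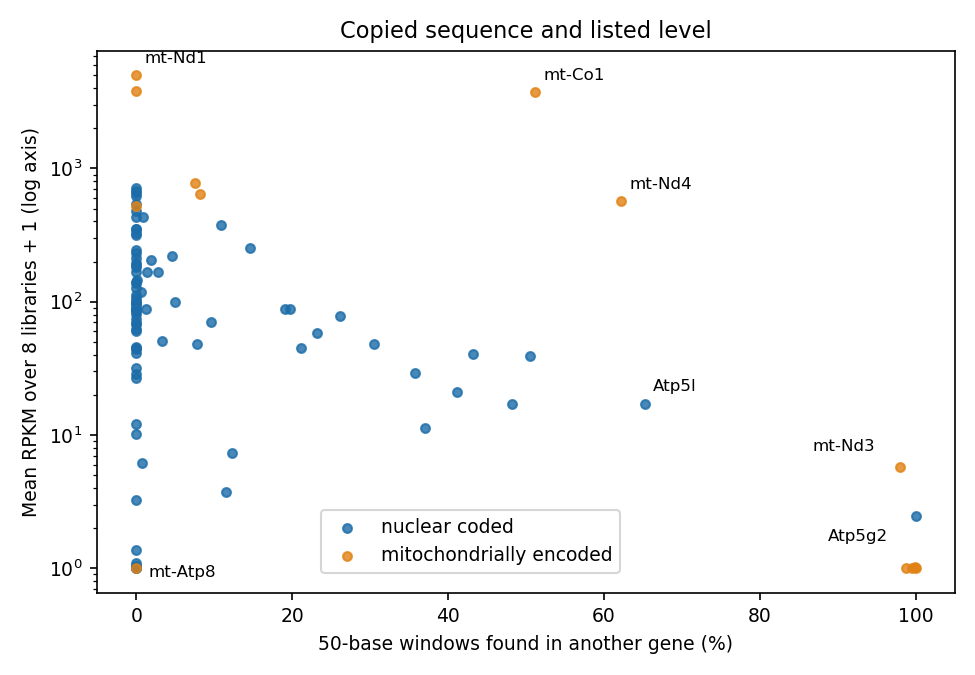
Mean RPKM over the 8 libraries plus 1 (log axis) against the percentage of a gene's 50-base windows that also occur in another annotated gene, with 1 point per member, nuclear coded in blue and mitochondrially encoded in orange. The mitochondrial genes with 98.0% or more of their windows copied lie at the bottom right, mt-Nd4 (62.2%) and mt-Co1 (51.1%) lie far above them, and mt-Atp8 lies at 0 on the left.

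The same check was made for the nuclear members. Only Atp5g2, 1 of 3 genes for the c-ring subunit of the ATP synthase, had all of its windows copied elsewhere, in the pseudogene Gm10175, and its mean was 1.45 RPKM. Copies covered 65.3% of Atp5l, 50.5% of Atp5h, 48.2% of Cox7c, 43.2% of Uqcrb, 41.2% of Ndufs5, 37.0% of Ndufb4, 35.8% of Ndufs3 and 30.6% of Cox5b. They covered 26.2% of Ndufa12, 23.2% of Atp5f1, 21.1% of Cox6c, 19.8% of Cox7a2l and 19.1% of Atp5o, and less than that of every other nuclear member. Values of these 14 nuclear genes are uncertain to that extent.

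Of the 98 members, 87 passed the filter of at least 1 RPKM in at least 2 libraries and were tested, 79 nuclear and 8 mitochondrial. Those not tested were the 5 mitochondrial genes above and 6 nuclear genes of complex IV, namely Cox4i2, Cox6a2, Cox7b2, Cox8b, Cox8c and Ndufa4l2. Tests were those of limma over 12900 genes on log2(RPKM + 1), where log2 changes understate those of low genes, and a gene was called at an adjusted p under 0.05. The 3 comparisons share their groups of 2 libraries and are not independent of each other.

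Nuclear coded subunits stood higher in culture than in fresh cells, and few single genes passed the test. Their summed level was 8219 and 5262 RPKM in fresh cells, 10509.6 and 9682 at 12 h, 10015 at 24 h, 13345 in the 48h-titled library, and 27362 and 11565 in organoids. Every cultured library was above both fresh libraries, and organoid replicate 1 was more than 2-fold above its partner. As a share of all RPKM, the 85 genes took 2.22% and 1.47% in fresh cells, between 2.64% and 3.62% at 12 h, 24 h and in the 48h-titled library, and 6.13% and 3.22% in organoids.

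In organoids compared with fresh cells, 2 of the 79 nuclear genes rose and 0 fell in limma's test, where 10.1% of all genes were called (5.15% higher and 4.94% lower). A share of 2 in 79 is not above that background. The direction was nearly uniform: the fitted change was above 0 for 77 of 79, against 56.0% of all genes, and both organoid libraries were above both fresh libraries for 67, against 38.1% of all genes. At an unadjusted p under 0.05 there were 50, all higher, where 29.5% of all genes passed in either direction and 17.4% higher. The median log2 change was 1.23, against 0.17 for all genes tested and 0.27 for those averaging at least 5 RPKM. The 2 genes below 0 were Cox7a1 and Atp5g1. Without organoid replicate 1 the median was 0.84, with 78 of 79 above 0 and 0 called; without organoid replicate 2 it was 1.69, with 17 called higher.

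At 12 h compared with fresh cells, 0 of the 79 were called by limma, where 6.81% of all genes were (3.09% higher and 3.72% lower), and 9 had an unadjusted p under 0.05, all of them higher, against 27.1% of all genes in either direction and 16.1% higher. The fitted change was above 0 for 70 of 79 (59.1% of all genes), and the 12 h libraries were above both fresh libraries for 51 (38.6% of all genes) and below both for 1, Cox7a1 (23.6%). The median log2 change was 0.67, against 0.24 for all genes and 0.40 for those averaging at least 5 RPKM. It was 1.02 without fresh replicate 1 and 0.35 without fresh replicate 2, and with any 1 library left out between 62 and 74 of the 79 were above 0. With each library centred on its median gene, which takes that shift of all genes out, the nuclear median at 12 h was 0.35 with 56 above 0, and the medians of complexes III and IV were 0.16 and 0.047, with 4 of 8 and 7 of 14 above 0. In organoids compared with 12 h, 0 were called, where 2.0% of all genes were (1.38% higher and 0.62% lower), and 6 had an unadjusted p under 0.05, all higher (9.8% of all genes, and 19.1% in either direction). The fitted change was above 0 for 67 of 79 (45.4% of all genes), and 33 were higher without overlap (20.8%), with a median of 0.54 against −0.09 for all genes; without organoid replicate 1 the median was 0.17 and 49 were above 0.

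The replicates of a group differed as a block. In fresh replicate 1, 74 of the 79 nuclear genes were higher than in fresh replicate 2, with a median log2 difference of 0.62, while the median over all genes was −0.0058. Between the 12 h replicates the median difference was 0.072. Organoid replicate 1 exceeded replicate 2 in 64 of 79, by a median of 0.85, while all genes differed by −0.38. A difference shared by most members of the family therefore also occurred between libraries of the same condition.

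Many nuclear subunits are short genes, and gene length moved with these differences. Among all genes averaging at least 5 RPKM, the median log2 change from fresh cells to organoids was 0.85 for genes under 1 kb of exon, 0.82 for 1 to 2 kb, 0.44 for 2 to 4 kb and −0.0021 above 4 kb. The nuclear subunits in the same classes had medians of 1.40 (18 genes), 1.52 (29), 1.13 (19) and 0.81 (10). Each was above the median of all genes in its class, which includes the subunits. At 12 h the subunit medians were 0.73, 0.74, 0.65 and 0.43, against 0.55, 0.66, 0.44 and 0.29 for all genes. Exon length counts every annotated exon of a gene and can far exceed 1 transcript. It was 5628 bases for Ndufb2 and 6443 for Atp5l, whose transcripts in the copy check had 455 and 544. The longer classes thus set some subunits of short transcript beside longer genes, and classes of transcript length were not made. Centred within 10 classes of exon length, an alternative added after the data were seen, the nuclear median was 0.97 in organoids and 0.31 at 12 h. The medians of complexes I, IV and V were then 0.55, 0.13 and 0.23 at 12 h and 1.03, 0.94 and 1.05 in organoids, and those of complexes II and III are given with each complex.

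**Figure D2:**
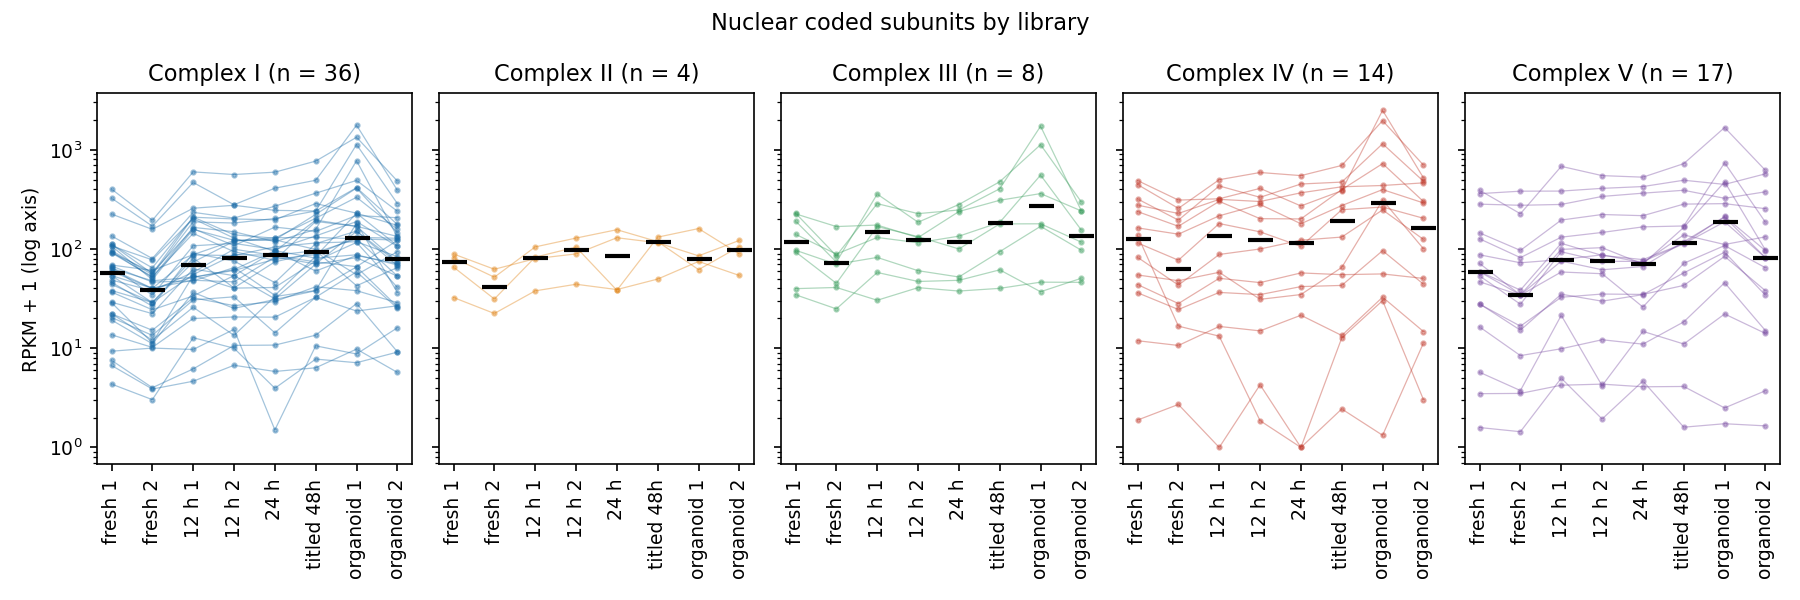
RPKM + 1 (log axis) of the tested nuclear subunits in each of the 8 libraries, 1 panel per complex, with 1 line per gene and a black bar at the median of each library. In complexes I, III, IV and V organoid replicate 1 holds the highest median (128 RPKM for complex I, before adding 1), and fresh replicate 2 holds the lowest in every panel.

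Complex I, the NADH dehydrogenase, had the largest number of nuclear members, 36, all of them tested. Its median change was 0.82 at 12 h, with 35 of 36 above 0 (59.1% of all genes). In organoids compared with fresh cells the median was 1.38, with 36 of 36 above 0 (56.0% of all genes). Without overlap 31 were higher (38.1% of all genes). Both genes called in organoids belong to complex I. Ndufa8, an accessory subunit on the intermembrane space side, was 42.9 and 27.9 RPKM in fresh cells, 72.7 and 119 after 12 h, 129 after 24 h, 129.6 in the 48h-titled library, and 126 and 122 in organoids. All 6 cultured libraries lay above both fresh libraries. Its mean went from 35.4 ± 10.6 RPKM (SD, n = 2) to 124 ± 2.58 RPKM (SD, n = 2), 3.49-fold, with a log2 change in limma of 1.81 (SE 0.39, adjusted p = 0.0362). Ndufb3, an accessory subunit of the membrane arm, was 28.1 and 21.3 RPKM in fresh cells, 61.9 and 52.8 after 12 h, 94.3 after 24 h, 59 in the 48h-titled library, and 85.1 and 70.3 in organoids. Here too every cultured library exceeded both fresh ones, and the highest value was the 24 h library's. The mean went from 24.7 ± 4.79 RPKM (SD, n = 2) to 77.7 ± 10.4 RPKM (SD, n = 2), 3.15-fold, with a log2 change in limma of 1.62 (SE 0.33, adjusted p = 0.0317). At 12 h limma gave 1.40 (adjusted p = 0.0775) for Ndufa8 and 1.19 (adjusted p = 0.0774) for Ndufb3, neither called. Leaving out 1 library at a time ended the organoid call of Ndufa8 in 4 of 6 cases (limma adjusted p 0.0464 to 0.287) and that of Ndufb3 in 5 of 6 (0.0427 to 0.249).

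The start regions of both genes are shown because they were the only nuclear members called, each from 250 bases before the RefSeq gene start to 50 after it (GRCm38.p6, 5′ to 3′ on the gene's strand). Ndufa8 lies at chr2:36049289-36049588 on the minus strand and Ndufb3 at chr1:58586147-58586446 on the plus strand. Capitals mark the match to the motif of NRF1, a transcription factor of respiratory genes.
Ndufa8: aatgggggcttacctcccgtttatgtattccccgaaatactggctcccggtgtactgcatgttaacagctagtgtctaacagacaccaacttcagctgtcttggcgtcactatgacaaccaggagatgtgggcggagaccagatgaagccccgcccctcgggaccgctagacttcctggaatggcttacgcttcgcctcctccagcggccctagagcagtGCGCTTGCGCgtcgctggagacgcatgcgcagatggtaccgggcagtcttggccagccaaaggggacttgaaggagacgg
Ndufb3: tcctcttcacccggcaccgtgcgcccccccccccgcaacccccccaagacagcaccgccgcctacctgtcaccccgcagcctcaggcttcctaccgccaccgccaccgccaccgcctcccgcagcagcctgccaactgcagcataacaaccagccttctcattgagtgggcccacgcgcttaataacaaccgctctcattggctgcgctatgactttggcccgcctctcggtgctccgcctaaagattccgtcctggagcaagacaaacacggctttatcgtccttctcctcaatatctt
The Ndufa8 window holds 1 NRF1 match, 30 bases before the start on the opposite strand, and the Ndufb3 window holds none of the NRF1, ETS or YY1 motifs described further on.

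The complex I genes with the highest levels were Ndufb9 and Ndufa2, accessory subunits of the membrane and matrix arms. Ndufb9 was 401 and 194 RPKM in fresh cells, 597 and 562 after 12 h, 594 after 24 h, 767 in the 48h-titled library, and 1336 and 483 in organoids. Ndufa2 was 325 and 169 RPKM in fresh cells, 467 and 278 after 12 h, 409 after 24 h, 491 in the 48h-titled library, and 1767 and 389.7 in organoids. In both, organoid replicate 1 was far above all other libraries. In organoids compared with fresh cells limma gave Ndufb9 a log2 change of 1.52 (SE 0.59, adjusted p = 0.144). Ndufa2 had one of 1.82 in limma, not called either (adjusted p = 0.164). The largest complex I change in organoids was that of Ndufv3, a small flavoprotein subunit, named after its values were seen, at 2.31 (limma adjusted p = 0.111). Its 2 organoid libraries differed about as widely as the groups, at 181 and 35.4 RPKM.

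A single library departed in Ndufs1, the largest iron-sulphur subunit of complex I, noticed after its values were seen. Ndufs1 was 0.502 RPKM in the 24 h library and between 7.74 and 15.1 RPKM in the other 7. The 24 h library had the fewest genes at 1 RPKM or more, 8814, compared with 10605 to 11263 in the others.

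Complex II, succinate dehydrogenase, is also an enzyme of the tricarboxylic acid cycle. Its 4 genes had a median change of 0.72 at 12 h and 0.85 in organoids, which were 0.28 and 0.44 within length classes, and 0 were called in any of the 3 comparisons. Sdha, the flavoprotein that oxidises succinate, was 88 and 61.5 RPKM in fresh cells, 78.8 and 88.2 after 12 h, 129 after 24 h, 115 in the 48h-titled library, and 84.3 and 121 in organoids. Organoid replicate 1 lay below fresh replicate 1, so the groups overlapped, and limma gave 0.45 (SE 0.36, adjusted p = 0.443). Sdhb, the iron-sulphur subunit, was 80.4 and 51 RPKM in fresh cells, 104 and 128 after 12 h, 155 after 24 h, 117 in the 48h-titled library, and 60.9 and 105 in organoids. Both 12 h values lay above both fresh values, at 0.84 on the log2 scale (limma adjusted p = 0.248), and the organoid value of replicate 1 was below that of fresh replicate 1. In organoids Sdhb gave 0.31 (SE 0.41, adjusted p = 0.65) in limma.

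Complex III, the cytochrome bc1 complex, has 8 nuclear members under the rule. At 12 h 5 were above 0, near the 59.1% of all genes, with a median of 0.48. In organoids 8 were above 0 (56.0% of all genes), with a median of 0.90. Within length classes these medians were 0.00013 and 0.44, and by quantile normalization the organoid median was 0.53. Uqcr10, a small transmembrane subunit, was 229 and 84.4 RPKM in fresh cells, 285 and 226 after 12 h, 246 after 24 h, 403 in the 48h-titled library, and 1726 and 241 in organoids. Its organoid replicate 2 was only a little above fresh replicate 1, and limma gave 2.21 (SE 0.93, adjusted p = 0.17). Uqcr11, the smallest subunit, was 190.3 and 72.9 RPKM in fresh cells, 357 and 185 after 12 h, 279.7 after 24 h, 475 in the 48h-titled library, and 1124 and 296 in organoids. Its organoid values were more clearly separate from the fresh ones, and limma gave 2.28 (SE 0.76, adjusted p = 0.104), not called. Against 12 h cells Uqcr10 gave 1.34 (limma adjusted p = 0.475), which was −0.079 without organoid replicate 1.

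Complex IV, cytochrome c oxidase, has 20 nuclear members, 14 of them tested, because several subunits come as a widely used gene and a tissue-restricted isoform. The median change was 0.38 at 12 h. In organoids it was 1.19 against fresh cells, with 13 of 14 above 0 (56.0% of all genes). Against 12 h it was 0.90, with 14 of 14 above 0 (45.4% of all genes). In each comparison 0 were called. Cox6b1, a subunit facing the intermembrane space, was 445 and 256 RPKM in fresh cells, 498 and 589 after 12 h, 548 after 24 h, 694 in the 48h-titled library, and 1963 and 700.3 in organoids. Cox4i1, the largest nuclear subunit and a regulatory one, was 488 and 309.9 RPKM in fresh cells, 319.5 and 407 after 12 h, 270.5 after 24 h, 385 in the 48h-titled library, and 2494 and 520.3 in organoids. In both genes the organoid libraries were above all 4 fresh and 12 h libraries, and replicate 1 was the outlying one. In organoids limma gave Cox6b1 1.79 (SE 0.57, adjusted p = 0.0931) and Cox4i1 1.55 (SE 0.72, adjusted p = 0.212). At 12 h Cox4i1 was close to its fresh level, at −0.11 (limma adjusted p = 0.943).

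The widely used isoforms carried nearly all of complex IV in every library. Cox4i2, the oxygen-responsive partner of Cox4i1, was at most 1.21 RPKM, Cox6a2 and Cox8c, of muscle and testis, were at 0 in all 8 libraries, Cox7b2 was at most 0.242 RPKM, and Cox8b reached 0.791 RPKM in 1 library. Their partners were far higher: Cox6a1 ranged from 227 to 463 RPKM and Cox8a from 194 to 1148. Cox6b2, the testis form, was 0 to 10.3 RPKM, the highest being organoid replicate 2. Ndufa4, first assigned to complex I and now counted with complex IV, was 162 and 140.0 RPKM in fresh cells, 215 and 280.0 after 12 h, 179 after 24 h, 273 in the 48h-titled library, and 396 and 290.2 in organoids. Its relative Ndufa4l2, known for its response to low oxygen, was at most 0.0732 RPKM. Ndufa4 was higher in both organoid libraries than in both fresh ones, by 1.16 (SE 0.34, adjusted p = 0.08) in limma.

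The exception among isoforms was Cox7a1, the heart and muscle form of subunit 7a. Cox7a1 was 136 and 15.7 RPKM in fresh cells, 12.2 and 0.86 after 12 h, 0 after 24 h, 11.7 in the 48h-titled library, and 29.2 and 2.03 in organoids. The 2 fresh libraries differed widely, and no cultured library reached the higher of them. Limma gave −3.27 (SE 1.5, adjusted p = 0.223) at 12 h and −2.32 (SE 1.5, adjusted p = 0.351) in organoids, not called in either. Its counterpart Cox7a2 was 237 and 168 RPKM in fresh cells, 301 and 201 after 12 h, 199.9 after 24 h, 395 in the 48h-titled library, and 724 and 300.1 in organoids. The ratio of the pair thus leaned to Cox7a2 everywhere, least in fresh replicate 1. Cox7a2l was 53.7 and 46.9 RPKM in fresh cells, 57.2 and 30.1 after 12 h, 33.7 after 24 h, 64.2 in the 48h-titled library, and 309.5 and 99.7 in organoids. It was lowest in 12 h replicate 2 and highest in organoid replicate 1, with 1.79 (SE 0.59, adjusted p = 0.103) in limma for organoids.

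The remaining isoform genes, Cox6c and Cox7b, are each the main or only form in these cells. Cox6c ranged from 23.6 to 95.2 RPKM and Cox7b from 42.2 to 247, the lowest in fresh replicate 2 and the highest in organoid replicate 1 for both. In organoids limma gave 1.13 (SE 0.46, adjusted p = 0.159) for Cox6c and 1.56 (SE 0.48, adjusted p = 0.0859) for Cox7b. Neither gene was called.

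Complex V, the ATP synthase, has 17 nuclear members, all tested. Its median change was 0.65 at 12 h, with 16 of 17 above 0 (59.1% of all genes). In organoids the median was 1.39, with 16 of 17 above 0 (56.0% of all genes). Without overlap 15 were higher, where 38.1% of all genes were, and 0 were called at 12 h or in organoids. Atp5mpl, a small peptide of the membrane part, was 389.7 and 225 RPKM in fresh cells, 679 and 548 after 12 h, 528 after 24 h, 724 in the 48h-titled library, and 1674 and 618 in organoids. Its lowest cultured value was above both fresh values, and limma gave 1.78 (SE 0.56, adjusted p = 0.0917) in organoids. Atp5b, the catalytic beta subunit, was 360.2 and 382 RPKM in fresh cells, 382 and 407 after 12 h, 425 after 24 h, 492 in the 48h-titled library, and 447 and 571 in organoids. Its levels spanned a far narrower range than those of Atp5mpl, and in organoids it gave 0.45 (SE 0.33, adjusted p = 0.415) in limma. The difference between these 2 changes was not tested.

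The c-ring is made by 3 genes that give the same mature protein. Atp5g3 was 86.4 and 71.6 RPKM in fresh cells, 77.2 and 86.3 after 12 h, 71.9 after 24 h, 138 in the 48h-titled library, and 110.0 and 132 in organoids. Atp5g1 stayed between 1.5 and 3.34 RPKM and Atp5g2, whose sequence is wholly copied elsewhere, between 0.44 and 3.99. Atp5g3 thus had the highest listed level of the 3 in every library. For Atp5g1, 535 of the 4666 windows of a 4715-base transcript were copied elsewhere, so its level is uncertain too. Which gene gave most c-ring mRNA was not tested. In organoids limma gave Atp5g3 0.61 (SE 0.31, adjusted p = 0.249).

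**Figure D3:**
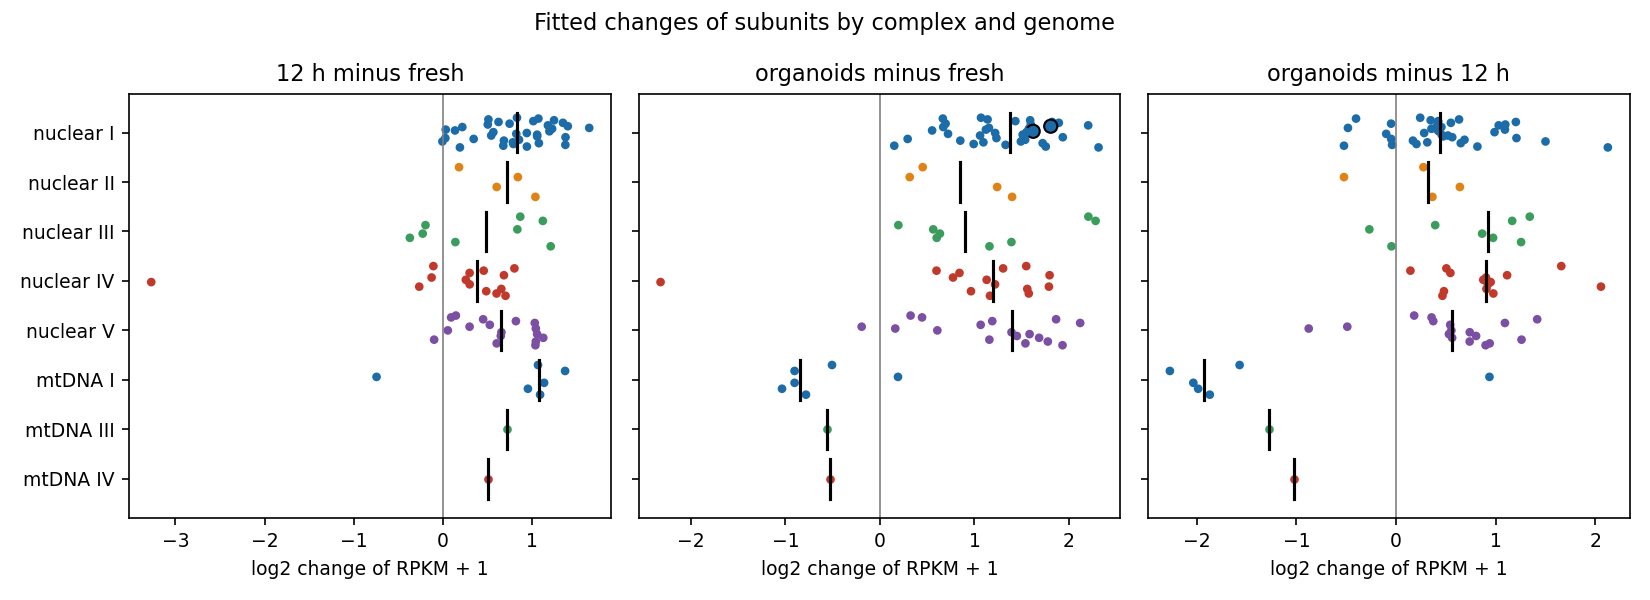
Fitted log2 changes of RPKM + 1 for the tested subunits, grouped by genome and complex, in the 3 comparisons (12 h minus fresh, organoids minus fresh, organoids minus 12 h), with 1 point per gene, a black bar at each median and black outlines for the 2 called genes. Nuclear medians lie to the right of 0 in all 3 panels (0.32 to 1.39), while the mitochondrial complex I median lies to the right at 12 h (1.07) and to the left in organoids (−0.84 against fresh cells and −1.93 against 12 h).

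The measured mitochondrial mRNAs had another order of libraries than the nuclear genes. Their summed level was 12044 and 10391 RPKM in fresh cells, 19124 and 20976 at 12 h, 25613 at 24 h, 15376 in the 48h-titled library, and 4609 and 12529 in organoids. The sum was highest at 24 h, the 48h-titled library was between the fresh and 12 h values, and the 2 organoid libraries disagreed, only replicate 1 being below both fresh libraries. These sums leave out the 5 genes listed at or near 0.

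At 12 h, 0 of the 8 tested mitochondrial genes were called by limma (6.81% of all genes). An unadjusted p under 0.05 was found for 1, higher, against 27.1% of all genes in either direction and 16.1% higher. All but mt-Nd3 were above both fresh libraries in both 12 h libraries, 7 of 8 against 38.6% of all genes, with a median log2 change of 1.01 over the 8. In organoids compared with fresh cells, 0 were called (10.1% of all genes) and 0 had an unadjusted p under 0.05 (29.5% of all genes). Of the 8, 7 were below 0 (43.8% of all genes), 4 of them without overlap (26.6% of all genes), and the median was −0.67; without organoid replicate 1 it was −0.14, and without replicate 2 it was −1.46 with 5 called lower. In organoids compared with 12 h, 0 were called (2.0% of all genes) and 5 had an unadjusted p under 0.05, all lower (9.34% of all genes). The fitted change was below 0 for 7 of 8 (54.0% of all genes). Both organoid libraries were below both 12 h libraries for 7 of 8 (24.1% of all genes), with a median of −1.72, and of −0.98 without organoid replicate 1. Mitochondrial mRNAs are cut from long shared transcripts, so these genes are not independent of each other. Without mt-Nd3 the medians of the other 7 were 1.06 at 12 h and −0.78 in organoids against fresh cells, and −1.87 against 12 h. The medians of all genes tested were 0.24, 0.17 and −0.09 in the same order.

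Among the complex I subunits of mitochondrial DNA, mt-Nd1, a core of the membrane arm next to the quinone site, had the highest level. mt-Nd1 was 3375 and 2977 RPKM in fresh cells, 5785 and 7584 after 12 h, 9247 after 24 h, 5739 in the 48h-titled library, and 1238 and 4014 in organoids. mt-Nd2, a proton-pumping subunit, was 468 and 338 RPKM in fresh cells, 995 and 1061 after 12 h, 1141 after 24 h, 608 in the 48h-titled library, and 118 and 381 in organoids. mt-Nd5, the outermost pump, was 703 and 577 RPKM in fresh cells, 1168 and 1297 after 12 h, 1070.3 after 24 h, 722 in the 48h-titled library, and 184 and 522 in organoids. All 3 were higher in both 12 h libraries than in both fresh ones and lower in both organoid libraries than at 12 h. The 2 organoid values differed by about 3-fold for each. At 12 h limma gave 1.06 (SE 0.65, adjusted p = 0.345) for mt-Nd1. For mt-Nd2 it gave 1.37 (SE 0.58, adjusted p = 0.188).

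mt-Nd4, another pump, ranged from 139.7 to 985 RPKM with the same order of groups. mt-Nd6 is the only member coded on the light strand and so is read from the other promoter. mt-Nd6 was 407 and 343 RPKM in fresh cells, 769.7 and 819 after 12 h, 833 after 24 h, 501 in the 48h-titled library, and 145 and 323 in organoids. Its 12 h values were above fresh and its organoid values below both, as for mt-Nd4, mt-Nd5 and mt-Co1. Whether the reads of mt-Nd6 came from the light-strand transcript was not tested. Against 12 h its organoid change was −1.87 (SE 0.45, adjusted p = 0.0896), the smallest adjusted p of the mitochondrial genes in limma. mt-Nd3 was 4.71 and 5.05 RPKM in fresh cells, 1.23 and 4.5 after 12 h, 6.29 after 24 h, 4.46 in the 48h-titled library, and 6.02 and 5.4 in organoids, a few RPKM in every library, and its order differed from that of its neighbours.

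mt-Cytb, the core of complex III, was 3089 and 2590.2 RPKM in fresh cells, 4569.6 and 4721 after 12 h, 6746 after 24 h, 4030.1 in the 48h-titled library, and 903 and 4047 in organoids. Organoid replicate 2 was above both fresh libraries and replicate 1 below them. Limma gave −0.56 (SE 0.73, adjusted p = 0.646) in organoids, and 0.52 without organoid replicate 1; the change of mt-Nd1 likewise went from −0.51 to 0.34. mt-Co1, the catalytic subunit of complex IV, was 3533 and 3192 RPKM in fresh cells, 4995 and 4505 after 12 h, 5584 after 24 h, 3358 in the 48h-titled library, and 1876 and 2888 in organoids. Both organoid values were below both fresh values, at −0.53 (SE 0.46, adjusted p = 0.483) in limma, and the 12 h values were above them, at 0.50 (SE 0.46, adjusted p = 0.537). The difference between the organoid replicates was smaller for mt-Co1 than for the other mRNAs named here, apart from mt-Nd3.

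**Figure D4:**
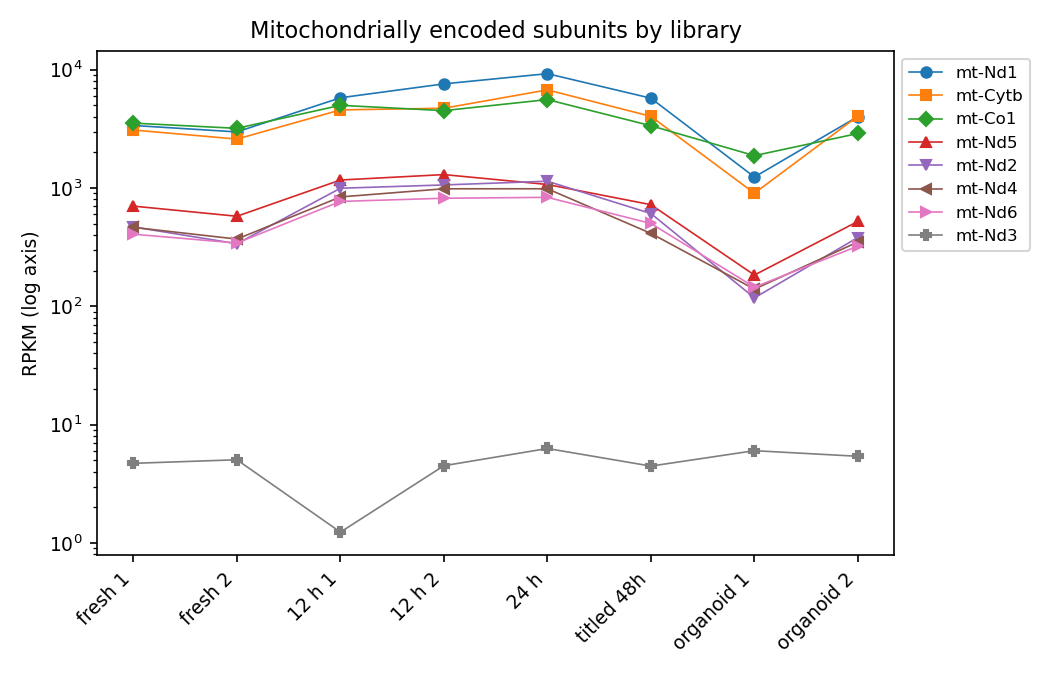
RPKM (log axis) of the 8 tested mitochondrially encoded subunits in each library, with 1 line per gene. In 7 of the 8 genes both 12 h values are above both fresh values, mt-Nd1 reaching 7584 RPKM, and the same 7 are lowest in organoid replicate 1, with mt-Nd3 far below the rest at 1.23 to 6.29 RPKM.

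The balance of the genomes differed between libraries. The ratio of summed mitochondrial to summed nuclear RPKM was 1.47 and 1.97 in fresh cells, 1.82 and 2.17 at 12 h, 2.56 at 24 h, 1.15 in the 48h-titled library, and 0.168 and 1.08 in organoids. Both organoid libraries and the 48h-titled library were below both fresh libraries. Their nuclear sums were higher, and replicate 1 had in addition a mitochondrial sum of 1.03% of all RPKM, compared with 2.91% to 7.06% in the other libraries. With 2 libraries against 2, an exact two-sided permutation test of this ratio cannot give a p below 0.333, so none is reported. The mitochondrial ribosomal RNAs did not share the low level of replicate 1: mt-Rnr2 was 11282 RPKM there, 4491 in replicate 2, and 11931 and 8049 in fresh cells. mt-Rnr1 was 1433 and 544 RPKM in the organoid libraries and 2409 and 1083 in the fresh ones. The hepatocyte markers, high in fresh cells, the mesothelial marker Msln, high from the 48h-titled library on, and the depth of organoid replicate 1, the lowest of the 8, moved with these groups or libraries, and their part in the balance was not tested.

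**Figure D5:**
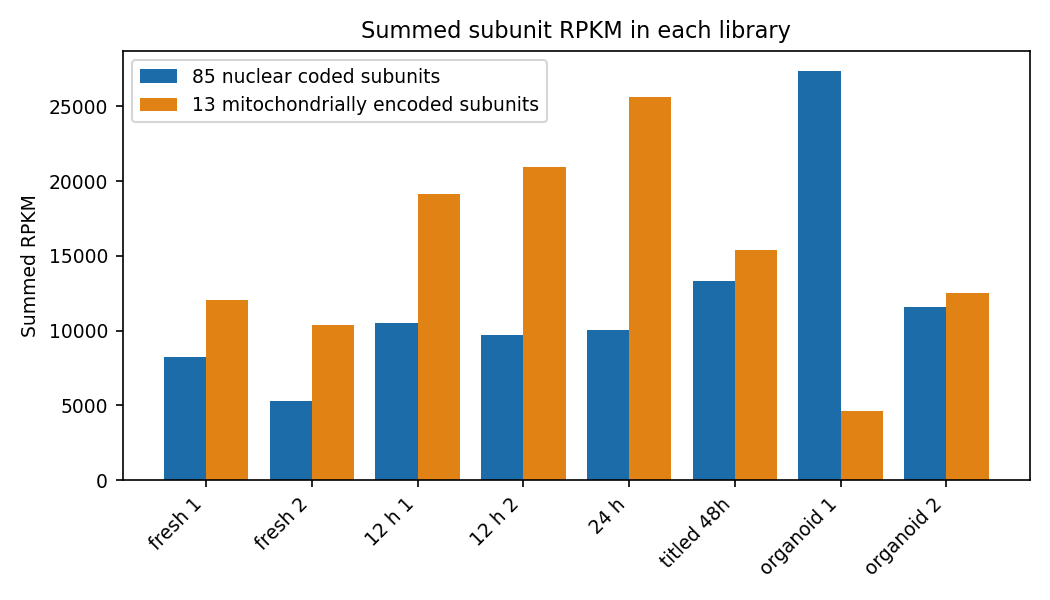
Summed RPKM of the nuclear coded and the mitochondrially encoded subunits in each library, as paired bars from 0. The mitochondrial bar is the taller in all libraries except organoid replicate 1, where the nuclear sum is 27362 and the mitochondrial sum 4609 RPKM.

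The 24 h library and the 48h-titled library are single libraries and have no replicate check. At 24 h, 56 of the 79 nuclear genes were above both fresh libraries, where 44.0% of all genes were. Below both were 9 of the 79, against 6110 of the 12900 genes tested. The 18 nuclear genes at least 2-fold above the fresh mean were near the 23.6% of all genes. Another 3 were at least 2-fold below it, against 3480 of the 12900. All 8 mitochondrial genes were above both fresh libraries. Their median log2 difference from the fresh mean was 1.20, against 0.71 for the nuclear genes and −0.074 for all genes tested. In the 48h-titled library the nuclear median, 1.07, was above the mitochondrial one, 0.30, which was close to the 0.30 of all genes tested. Of the 79 nuclear genes, 73 were above both fresh libraries (55.1% of all genes). At least 2-fold above the fresh mean were 42 (26.2% of all genes). Of the 8 mitochondrial genes, 5 were above both fresh libraries, near the share of all genes.

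Other genes of the pathway were followed in 7 lists. Factors that assemble complex I included genes that rose: of 15 tested, 2 rose and 0 fell at 12 h in limma (median log2 change 1.16), where 3.09% of all genes were called higher, and 1 rose in organoids (0.55), where 5.15% of all genes were. Both calls at 12 h were lost when any fresh or 12 h library was left out, and the organoid call without either fresh replicate or without organoid replicate 1. Timmdc1, a membrane-arm assembly factor, was 4.45 and 2.85 RPKM in fresh cells, 30.8 and 34.5 after 12 h, 2.6 after 24 h, 19.2 in the 48h-titled library, and 19.6 and 22.1 in organoids. Fresh cells and the 24 h library were low and the other 5 libraries high, with 2.88 (SE 0.38, adjusted p = 0.0239) at 12 h and 2.25 (SE 0.38, adjusted p = 0.021) in organoids in limma. Ndufaf6 was called at 12 h alone, at 1.92 (SE 0.42, adjusted p = 0.0479) in limma.

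Of 28 tested factors that assemble complexes II to V, 2 rose at 12 h (median 1.02) and 7 in organoids (median 1.29), and 0 fell, where 3.09% and 5.15% of all genes were called higher. Both 12 h calls were lost when any fresh or 12 h library was left out. Uqcc2, needed to make cytochrome b, was 28.1 and 10.8 RPKM in fresh cells, 152 and 86.4 after 12 h, 122 after 24 h, 192 in the 48h-titled library, and 515 and 91.1 in organoids. Sdhaf4, a chaperone of the succinate dehydrogenase flavoprotein, was 6.45 and 2.29 RPKM in fresh cells, 11.7 and 32.9 after 12 h, 7.92 after 24 h, 38.5 in the 48h-titled library, and 50.2 and 39.9 in organoids. Coa3, which stabilises newly made complex IV subunit 1, was 66.9 and 29.1 RPKM in fresh cells, 269 and 187 after 12 h, 252 after 24 h, 248 in the 48h-titled library, and 498 and 180.4 in organoids. For each of these genes the fresh values were the lowest of all libraries. In limma the organoid changes were 3.56 (SE 0.85, adjusted p = 0.048) for Uqcc2, 3.21 (SE 0.61, adjusted p = 0.0275) for Sdhaf4 and 2.74 (SE 0.61, adjusted p = 0.0405) for Coa3. Sdhaf1 and Coa6 rose at 12 h by 2.29 and 1.74 (limma adjusted p = 0.0355 and 0.0457) and in organoids by 1.75 and 1.99 (adjusted p = 0.0493 and 0.0261), and Coa5 and Uqcc3 completed the 7. Without organoid replicate 1, or without either fresh replicate, 0 of the 7 calls remained past the threshold.

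Elsewhere in the pathway few genes were called. Cyc1, cytochrome c1, was 179 and 135 RPKM in fresh cells, 418 and 340.4 after 12 h, 267 after 24 h, 420.3 in the 48h-titled library, and 287 and 269.9 in organoids. It stood higher in every cultured library than in fresh cells, yet limma gave 1.27 (SE 0.33, adjusted p = 0.0678) at 12 h. Cycs, the somatic cytochrome c, was listed at 0.561 to 3.49 RPKM. It was not among the genes checked for copied sequence, so this low level is uncertain. Genes that copy and transcribe mitochondrial DNA gave 0 calls among 14 tested in all 3 comparisons. Of all genes, 6.81% were called at 12 h, 10.1% in organoids against fresh cells and 2.0% against 12 h. The list's medians were 0.63 at 12 h and 0.72 in organoids, against 0.24 and 0.17 for all genes. Tfam, which packs mitochondrial DNA and starts its transcription, was 14.4 and 13 RPKM in fresh cells, 6.54 and 17.5 after 12 h, 8.53 after 24 h, 14.6 in the 48h-titled library, and 8.01 and 13.6 in organoids. Its groups overlapped throughout.

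Of 7 nuclear regulators of respiratory genes tested, 1 fell in organoids (4.94% of all genes), Pprc1, a coactivator of respiratory genes, and 5 had a change below 0 (43.8% of all genes), with a median of −0.60. Pprc1 was 24.7 and 22.2 RPKM in fresh cells, 17.8 and 12.3 after 12 h, 11.8 after 24 h, 11.1 in the 48h-titled library, and 3.8 and 6.03 in organoids. Every cultured library was below both fresh libraries, and limma gave −2.07 (SE 0.41, adjusted p = 0.0296) in organoids, a call that was lost with no filter, without either fresh replicate and without organoid replicate 1. The regulators Nrf1, Gabpa and Gabpb1 had organoid changes of −0.60, −1.10 and −1.20, and Esrra one of 1.58, none of them called in limma.

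The 13 enzymes of the tricarboxylic acid cycle gave 0 calls in any comparison. Of all genes, 6.81% were called at 12 h, 10.1% in organoids against fresh cells and 2.0% against 12 h. The list's medians were 0.29 at 12 h and 0.45 in organoids, against 0.24 and 0.17 for all genes. A list of 13 is too short for 0 calls to stand apart from those shares. Of 12 genes of pyruvate entry, 1 fell at 12 h (3.72% of all genes) and in organoids (4.94%), Pdk4, the kinase that switches off pyruvate dehydrogenase in fasting. Pdk4 was 3.96 and 6.01 RPKM in fresh cells, 0.0408 and 0.0393 after 12 h, 0 after 24 h, 0.13 in the 48h-titled library, and 0 and 0.0141 in organoids. It was near or at 0 in every cultured library, with −2.50 (SE 0.33, adjusted p = 0.0239) at 12 h and −2.55 (SE 0.33, adjusted p = 0.0119) in organoids in limma. The call at 12 h was lost when any fresh or 12 h library was left out, and that in organoids without either fresh replicate or without organoid replicate 1. Ldha, which turns pyruvate into lactate, is given for comparison and was chosen after its values were seen; Ldha was 92.5 and 78.6 RPKM in fresh cells, 203 and 182 after 12 h, 301 after 24 h, 329 in the 48h-titled library, and 1992 and 256 in organoids. It gave 3.05 (SE 0.87, adjusted p = 0.073) in organoids in limma, with organoid replicate 1 again far above all other libraries.

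The promoters of the nuclear members were searched for the motifs of factors known to control respiratory genes, in windows of 300 bases from 250 before to 50 after the RefSeq gene start (GRCm38.p6), on both strands. Windows were found by symbol for 67 of the 85 genes. The NRF1 motif, GCGCA then any base then GCGC, occurred in 17 (25.4%), compared with 5.19% of all 27025 genes with a window and 11.8% of the 9369 that passed the expression filter. The YY1 motif AAGATGGC occurred in 9 (13.4%), against 3.19% and 5.44%, and the ETS motif CCGGAAG, bound by GABP, in 16 (23.9%), against 9.93% and 20.9%. The CCAAT box was found in 29 (43.3%), close to the 41.1% and 43.0% of other genes. Among the genes tested, those with an NRF1 match had a median organoid change of 1.39 (17 genes) and those without one of 1.23 (48 genes). The same medians were 1.39 and 1.19 for ETS, 1.49 and 1.22 for YY1, and 1.39 and 1.19 for the CCAAT box. A match is a run of letters, not evidence that the factor binds there.
The window of Cox6b1, the nuclear complex IV gene with the highest mean RPKM, at chr7:30626065-30626364 on the minus strand, is shown as an example with an ETS match in capitals, 28 bases before the start on the opposite strand.
Cox6b1: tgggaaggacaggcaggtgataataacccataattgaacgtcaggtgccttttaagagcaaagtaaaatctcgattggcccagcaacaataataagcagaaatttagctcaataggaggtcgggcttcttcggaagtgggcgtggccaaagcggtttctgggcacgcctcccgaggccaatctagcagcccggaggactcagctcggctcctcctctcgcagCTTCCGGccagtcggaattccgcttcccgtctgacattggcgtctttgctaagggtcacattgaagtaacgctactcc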

How the data were processed

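RNA was measured in 8 libraries prepared from total RNA by Smart-seq2 and Nextera XT, per the labels' protocols. The authors deposited RPKM per gene and library. The reads were placed on GRCm38 and edgeR was among the tools, per the submitters' processing notes. No source used here gives the aligner, the counter, the annotation release or the handling of reads that match several places. Between 96.7% and 97.4% of small values were whole multiples of 1 read within 0.02, which gave the effective reads.

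Symbols came from GENCODE M21 (GRCm38), which named 47310 of 47729 identifiers. Values were taken as log2(RPKM + 1). A gene was kept if 2 or more libraries had 1 RPKM or more, which left 12900, and these were fitted with limma 3.58.1 in R 4.3.3 (eBayes with a trend, 1 coefficient for each of 5 groups, 3 residual and 3.65 prior degrees of freedom). Two-sided p-values were adjusted over all 12900 genes by the Benjamini-Hochberg method in each of the 3 comparisons. The procedure was tested on simulated data with independent noise for each gene. That simulation lacks the shifts that most members share between replicates, so it does not bear on them. Tables and figures were made in Python 3.11.15 with pandas 2.3.3 and matplotlib 3.10.9.

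The members, the 7 lists of other pathway genes and the marker lists were chosen with earlier results of these data known. Named genes were the 13 mitochondrial members, the 2 nuclear members of each complex with the highest mean and every nuclear member called. The isoform genes and called list members (where several, the largest changes) were added. Ndufv3, Ndufs1 and Ldha are marked as chosen after their values were seen. Others outside this rule, so not fixed beforehand by it, include Cyc1, Cycs, Tfam, Nrf1, Gabpa, Gabpb1, Esrra, Coa5 and Uqcc3. Copied sequence was counted as 50-base windows of a gene's first protein-coding transcript found in a transcript of another gene. Alternatives covered the pseudocount, the filter, the scaling, the fit and each replicate left out. Same-numbered replicates were not shown to be pairs: their deviations correlated at 0.19 (fresh and 12 h), 0.22 (fresh and organoids) and 0.018 (12 h and organoids), with only 2 numbers.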

Additional observations from a re-analysis of the deposited data

How the results depend on the processing

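The fitted results were recomputed under 16 alternatives, 1 of them (centring within 10 classes of exon length) added after the data were seen, except for the named genes that the 5 RPKM filter below leaves untested; the shares of summed RPKM have 1 of their own. The directions of the nuclear medians and of the mitochondrial medians were the same under all 16. Nuclear genes called higher in organoids against fresh cells, 2 as reported, were 0 with no filter, 0 with centred libraries, 0 with RPKM rescaled without mitochondrial genes, 1 with no variance trend, 5 with only genes whose mean was 5 RPKM or more (the 5 RPKM filter) and 19 with a replicate block. The replicate block also called 1 nuclear gene lower at 12 h and 1 lower in organoids, Cox7a1. The same-numbered libraries share only a number, so the block is given here alone. Leaving out 1 library gave 0 to 17 nuclear calls and 0 to 5 mitochondrial genes lower (0 to 4 against 12 h), the highest without organoid replicate 2.

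The nuclear median at 12 h was 0.31 within length classes, and the mitochondrial one 0.68 with centred libraries, 1.23 with quantile normalization and 0.60 within length classes. With 1 library left out, the mitochondrial median in organoids ranged from −1.46 to −0.14 against fresh cells, with 1 to 3 genes above 0, and from −2.43 to −0.98 against 12 h, and the nuclear median against 12 h from 0.17 to 0.96. Under the 5 RPKM filter 0 mitochondrial genes were above 0 in organoids in either comparison, since mt-Nd3 was then not tested.

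Among named genes that were not called, signs at 12 h turned for Atp5b (−0.24 centred, −0.46 within length classes), Atp5g1 (−0.032 and −0.12), Atp5g3 (−0.28, −0.32 and −0.22 by quantiles), Cox6c (−0.074, −0.058 and −0.12 by quantiles), Sdha (−0.15, −0.37 and −0.10 by quantiles), Cox6a1 (−0.032 centred), Cox7a2 (−0.031 centred) and Cox4i1 (0.19 by quantiles). In organoids they turned within length classes for Atp5g2 (−0.40) and Sdhb (−0.044), and against 12 h by quantiles for Atp5b (−0.070) and Ndufb9 (−0.31). With 1 library left out, the 12 h change ranged from −0.080 to 0.19 for Atp5g3 (also −0.026), −0.44 to 0.22 for Cox4i1 (also 0.065), −1.18 to 0.92 for Cox6b2 (also 0.13), −0.025 to 0.54 for Cox6c, −0.72 to 0.19 for Cox7a2l and −0.077 to 0.43 for Sdha. The organoid change then ranged from −0.48 to 0.094 for Atp5g1, −0.77 to 2.32 for Cox6b2, −0.071 to 0.70 for Sdhb (also −0.0090), −1.65 to 0.52 for mt-Cytb and −1.36 to 0.34 for mt-Nd1. Against 12 h it ranged from −0.64 to 2.45 for Cox6b2 (also −0.15), −0.71 to 2.61 for Cox7a1 (also −0.47), −0.26 to 1.20 for Ndufb9 and −0.079 to 2.76 for Uqcr10.

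List counts moved as follows. Complex I assembly at 12 h (2) was 1 with no filter, centring, quantiles, no trend or length classes and 0 to 2 with 1 library left out; in organoids (1) it was 2 with no trend and 0 to 1, with 0 to 1 lower, also against 12 h. Complexes II to V assembly at 12 h (2) was 1 with no filter, centring, rescaling or no trend, 4 with the block and 0 to 2; in organoids (7) it was 1 with no filter, 3 centred, 4 with rescaling, only the groups compared or no trend, and 0 to 5. Single calls, 1 each, appeared for cytochromes at 12 h by quantiles, mitochondrial genome genes at 12 h under the 5 RPKM filter or the block and in organoids with only the groups compared (0 to 1), the tricarboxylic acid cycle at 12 h with only the groups compared (0 to 1) and in organoids under the 5 RPKM filter, and pyruvate entry, higher, at 12 h with only the groups compared (0 to 1) and in organoids under the 5 RPKM filter or the block (0 to 2, also against 12 h). Pyruvate entry, lower (1), was 0 at 12 h under the 5 RPKM filter and otherwise 2 when centred, by quantiles or within length classes, in organoids also with only the groups compared or the block, and 0 to 1 and 0 to 2 with 1 library left out. The call of Pprc1 was 0 with no filter and 0 to 1. The cause of these moves was not tested. With at most 2 libraries a group, a change shared by both may still be that of 1 preparation.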
